A study of Homo sapiens with 8 samples.

Results

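The subject here is the difference between 2 transcriptional responses of LP-1 cells, that to SGC-CBP30 and that to CPI203. LP-1 cells are an established human line from multiple myeloma, a tumor of plasma cells. For each gene, the log2 change with CPI203 against its DMSO libraries was subtracted from the log2 change with SGC-CBP30 against its own DMSO libraries. All 8 libraries of the series entered this contrast, and 14732 of the 63129 genes in the deposited table were included because their mean over these libraries was at least 1 RPKM, which is the read number scaled to gene length and to all mapped reads. NBPF3 lay just inside this limit with a mean of 1.0003 RPKM, and SORL1 just outside with 0.9998 RPKM. A negative difference means that the SGC-CBP30 response was the lower of the pair, and a positive difference that it was the higher.

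The study examined RNA from LP-1 cells after 6 hr with 2.5 μM SGC-CBP30, 250 nM CPI203 or the solvent DMSO. There were 4 groups of 2 libraries, since each compound had its own DMSO pair, and the titles tie each DMSO pair to its compound through a common naming scheme. Compound and experiment therefore cannot be told apart, and with 1 dose and 1 time of each compound the doses are not matched. The groups share the cell line and the 6 hr exposure, and the study's text on the RNA-seq data calls the treated samples biological replicates, although the labels do not state separate cultures. The depth estimated from the steps of low RPKM values was 26100000 to 50400000 reads per library, the 10 most abundant genes took 3.79% to 4.08% of the total RPKM, and for genes of at least 10 RPKM the SD between replicates was 0.0909 to 0.115 on the log2 scale. All 6 plasma cell markers examined were measured at 1 RPKM or more, while only 2 of the 14 markers of other cells (HBB and CD68) reached that mean, and both were below 1 RPKM in a DMSO pair.

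Bromodomains are protein modules that bind acetylated lysines, mainly on histone tails. CBP (gene CREBBP) and EP300 are closely related acetyltransferases that act at enhancers, and SGC-CBP30 occupies their bromodomains. BRD2 and BRD3 belong to the BET family, which brings the elongation kinase P-TEFb to transcribed genes, and CPI203 occupies BET bromodomains. In myeloma, IRF4 is a lineage transcription factor on which the cells depend, and MYC drives growth and ribosome production. In RNA from a whole culture, fewer cells of a kind and less RNA per cell cannot be told apart.

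IRF4 and MYC responded differently to the compounds, IRF4 more to SGC-CBP30 and MYC more to CPI203. IRF4 was at 215 and 211 RPKM with DMSO and at 86.2 and 79.5 RPKM with SGC-CBP30, whereas in the CPI203 experiment it was at 228 and 228 RPKM with DMSO and at 203 and 202 RPKM with CPI203. Both SGC-CBP30 libraries were far below all the others, and the CPI203 libraries were slightly below every DMSO library. The log2 change was -1.36 with SGC-CBP30 (95% interval -1.45 to -1.28) and -0.17 with CPI203 (-0.26 to -0.09), a difference of -1.19 ± 0.06 (SE, limma adjusted p = 4.48e-07). MYC was at 281 and 296 RPKM with DMSO and at 217 and 193 RPKM with SGC-CBP30, against 247 and 240 RPKM with DMSO and 31.5 and 30.9 RPKM with CPI203. The MYC levels of both treated pairs lay below all DMSO libraries, and those with CPI203 lay far lower. MYC fell by 2.96 on the log2 scale with CPI203, its change of -0.49 with SGC-CBP30 did not reach 1.5-fold, and the difference was 2.46 ± 0.07 (SE, limma adjusted p = 1.04e-07).

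The transcripts of the proteins that the compounds bind differed less. CREBBP was at 19.8 to 21.9 RPKM in the SGC-CBP30 experiment and at 15 to 18.8 RPKM in the CPI203 experiment, with a difference between the responses of -0.11 (95% interval -0.37 to 0.15). EP300 had a difference of -0.27 (-0.52 to -0.02, limma adjusted p = 0.0711), so a difference of 1.5-fold lay outside these intervals. BRD3, at no more than 3.16 RPKM in any library, had a wider interval of -1.09 to 0.42, which leaves a difference of 1.5-fold possible. BRD2 was at 157 and 164 RPKM with DMSO and 186 and 189 RPKM with SGC-CBP30, and at 138 and 136 RPKM with DMSO and 266 and 263 RPKM with CPI203. It rose with CPI203 by 0.95 and the responses differed by -0.72 ± 0.04 (SE, limma adjusted p = 2.3e-06), or by -0.50, below 1.5-fold, when treated libraries were compared directly. HEXIM1, an inhibitor of P-TEFb whose transcript is used as a marker of BET inhibition, was at 6.31 and 6.53 RPKM with SGC-CBP30 and at 7.51 and 7.95 RPKM with DMSO. With CPI203 it was at 19.8 and 20.3 RPKM against 7.54 and 7.27 RPKM, and the responses differed by -1.69 ± 0.10 (SE, limma adjusted p = 1.36e-06).

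Over all genes tested, the responses differed for 3609 genes, or 24.5%, at an adjusted p under 0.05 and a difference of at least 1.5-fold. The SGC-CBP30 response was the lower for 1426 genes (9.68%) and the higher for 2183 genes (14.8%). The higher share among these genes was 60.5%, but 50.2% after quantile normalization and 51.8% after median scaling. At any size, 7416 genes differed at this adjusted p, since the 95% interval of a difference had a median half-width of 0.25 on the log2 scale. A gene was called with a compound at an adjusted p under 0.05 and at least 1.5-fold against its own DMSO. With SGC-CBP30 3.79% of the genes were called lower and 3.47% higher, and with CPI203 14.4% were called lower and 13.4% higher. Of the 1070 genes called with SGC-CBP30, 519 differed between the responses, and of the 4095 called with CPI203, 2638 did.

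The genes that differed were divided by what each compound did. A gene moved in opposite directions when it was called with both compounds, with opposite signs, and its responses differed. A gene moved with one compound only when it was called with that compound, the 95% interval of the other change lay within 1.5-fold in either direction, and the responses differed. By these rules 42 genes (0.285% of those tested) fell with SGC-CBP30 and rose with CPI203, and 36 (0.244%) rose with SGC-CBP30 and fell with CPI203, 0.529% in both orientations. SGC-CBP30 alone lowered 115 genes (0.781%) and raised 56 (0.38%), whereas CPI203 alone lowered 1170 (7.94%) and raised 699 (4.74%). Of the genes called in the same direction with both compounds, 14 moved further with SGC-CBP30 and 141 further with CPI203. Another 1336 genes differed but met none of these rules. They were called with 1 compound while the interval of the other reached beyond 1.5-fold, or were called with neither. ERN1 was of the latter kind, with changes of -0.36 with SGC-CBP30 and 0.37 with CPI203. For 313 genes called with both compounds the difference did not pass. In the order given, 3, 8, 2, 2, 1 and 14 genes of the 6 classes were below 1 RPKM in a DMSO pair and passed the filter through other libraries. The scatter of both responses shows these classes.

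**Figure D1:**
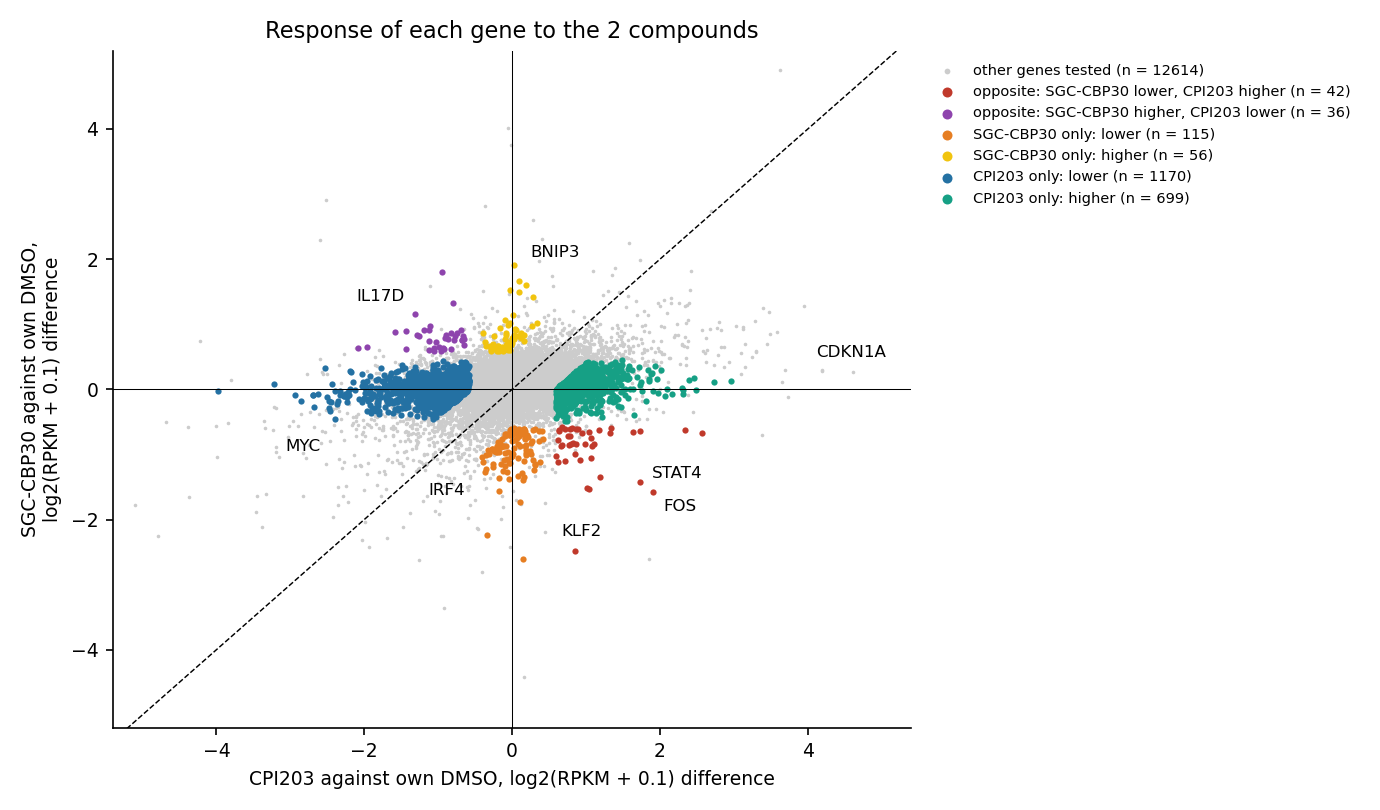
Each point is 1 of the 14732 genes, with its log2 change with CPI203 against DMSO on the horizontal axis and with SGC-CBP30 against DMSO on the vertical axis; colors mark the 6 classes, gray the other genes, and on the dashed line both changes are equal. The points spread further along the CPI203 axis, and 42 and 36 genes lie in the quadrants of opposite direction.

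Promoters of 4 genes are shown as examples, 1 from each of 4 patterns described below, and 1 promoter does not stand for its class. STAT4 and IL17D rank first in the pair of opposite classes, IRF4 fell with SGC-CBP30 only, and CDK4 belongs to the growth genes that fell with CPI203 only, among which it was chosen because its window holds E-boxes, as only 3 of the 18 windows of these genes do. Each line gives the 250 bases before the transcription start, 5′ to 3′, from RefSeq on GRCh38.p14, for STAT4 at chr2:191151597-191151846 (minus strand), IL17D at chr13:20702842-20703091 (plus strand), IRF4 at chr6:391502-391751 (plus strand) and CDK4 at chr12:57752311-57752560 (minus strand). Capitals mark the motifs searched on both strands, which were the E-box CACGTG, the GC box GGGCGG, the CCAAT box, the TATA box TATAAA and the interferon response core.
STAT4: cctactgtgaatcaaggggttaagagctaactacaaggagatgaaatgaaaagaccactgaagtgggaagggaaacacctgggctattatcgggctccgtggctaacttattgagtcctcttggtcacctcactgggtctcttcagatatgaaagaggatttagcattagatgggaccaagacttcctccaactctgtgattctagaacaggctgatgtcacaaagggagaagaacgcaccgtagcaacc
IL17D: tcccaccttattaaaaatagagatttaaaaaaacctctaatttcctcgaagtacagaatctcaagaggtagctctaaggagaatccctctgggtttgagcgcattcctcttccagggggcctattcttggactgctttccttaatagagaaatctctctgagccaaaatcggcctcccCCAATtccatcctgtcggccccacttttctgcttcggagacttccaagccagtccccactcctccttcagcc
IRF4: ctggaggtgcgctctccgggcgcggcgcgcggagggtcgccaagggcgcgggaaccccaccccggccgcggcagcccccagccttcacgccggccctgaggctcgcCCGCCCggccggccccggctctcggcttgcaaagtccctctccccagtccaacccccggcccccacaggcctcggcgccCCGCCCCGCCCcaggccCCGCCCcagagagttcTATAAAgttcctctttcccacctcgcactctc
CDK4: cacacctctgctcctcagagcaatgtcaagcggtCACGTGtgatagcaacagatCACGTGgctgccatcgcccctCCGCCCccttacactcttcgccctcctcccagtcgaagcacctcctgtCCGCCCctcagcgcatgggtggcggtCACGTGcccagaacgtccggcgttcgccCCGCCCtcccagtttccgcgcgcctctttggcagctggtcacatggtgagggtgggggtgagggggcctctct

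The CDK4 window holds 3 E-boxes and 3 GC boxes, that of IRF4 holds 4 GC boxes and a TATA box, that of IL17D holds 1 CCAAT box, and none of these motifs occurs in the STAT4 window. The E-box is the sequence that MYC and related factors bind. It was present in 9.3% of the promoters of the protein-coding genes tested (8774 of 10661 had a promoter in the table) and in 6.5% of all 27305 promoters. Among genes lowered by CPI203 only it was present in 13.4% of 763 promoters, among those raised by CPI203 only in 9.4% of 481, and among those lowered by SGC-CBP30 only in 4.8% of 83. The GC box was present in 69.2% of the promoters of the genes tested, in 68.8% of genes lowered by CPI203 only and in 79.2% of genes raised by it only. The share of genes with a promoter sequence was below 80% in both opposite classes (69.4% and 65.4%) and in the genes raised by SGC-CBP30 only (78.7%), so the motif counts are void there. The median gene span was 86033 bases for genes that fell with SGC-CBP30 and rose with CPI203, 27860 bases for genes lowered by CPI203 only and 32568 bases for all protein-coding genes tested.

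Among the 42 genes that fell with SGC-CBP30 and rose with CPI203, the median log2 change with SGC-CBP30 was -0.80 and that with CPI203 0.88. The class holds 36 protein-coding genes, and 33 met the conditions for being named. The named genes of the opposite classes are ranked by the smaller of their changes. STAT4, a transcription factor that carries signals of cytokine receptors, ranked first and lies on chromosome 2 at 191894301 to 192016322 (hg19). It was at 2.12 and 2.1 RPKM with DMSO and 0.645 and 0.816 RPKM with SGC-CBP30, and at 1.02 and 1.51 RPKM with DMSO and 4.64 and 4.07 RPKM with CPI203. Treated libraries beyond their own DMSO libraries were a condition for being named. For STAT4, as for 32 of the 42 genes, both treated pairs lay beyond all 4 DMSO libraries, SGC-CBP30 below and CPI203 above. The difference was -3.15 ± 0.29 (SE, limma adjusted p = 1.88e-05), which is 0.113 times on the fold scale. CD44, the hyaluronan receptor of the cell surface, was more abundant, at 49.3 and 49.2 RPKM with DMSO and 24.9 and 21.4 RPKM with SGC-CBP30, and at 28.9 and 30.9 RPKM with DMSO and 58 and 55.1 RPKM with CPI203. Its treated libraries also lay outside the range of all 4 DMSO libraries, on opposite sides, and its difference was -2.01 ± 0.10 (SE, limma adjusted p = 6.2e-07).

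RAB31, a small GTPase of vesicle transport, was at 0.965 and 1.32 RPKM with DMSO against 0.32 and 0.342 RPKM with SGC-CBP30, and at 1.34 and 0.908 RPKM with DMSO against 2.47 and 2.22 RPKM with CPI203. NEDD9, a scaffold of integrin signalling, RELL1, a relative of the TNF receptors, and SPSB1, an adaptor of a ubiquitin ligase, behaved alike, with differences of -1.95, -1.96 and -1.84. In all 3 the treated libraries were outside the range of the 4 DMSO libraries. PVRL1, the adhesion molecule nectin-1, and ZMIZ1, a transcriptional coregulator, had differences of -2.58 and -2.12 but started from different levels. PVRL1 was at 9.4 and 9.66 RPKM in one DMSO pair and at 2.88 and 2.54 RPKM in the other, while its treated libraries were at 3.34 and 3.09 RPKM with SGC-CBP30 and 6.02 and 5.35 RPKM with CPI203. Its 4 treated libraries thus lay between the DMSO pairs.

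ZFP36 and TP53INP1 were named through the gene lists described later. ZFP36, which marks AU-rich transcripts for decay, was at 10.9 and 11.3 RPKM with DMSO and 7.14 and 7.1 RPKM with SGC-CBP30, against 9.13 and 8.25 RPKM with DMSO and 27.6 and 30.3 RPKM with CPI203. TP53INP1, a p53 target, was at 37.1 and 36.6 RPKM with DMSO and 22 and 24.7 RPKM with SGC-CBP30, against 30.1 and 31 RPKM with DMSO and 95.5 and 95.3 RPKM with CPI203. In both genes each treated pair stood clear of all 4 DMSO libraries. Their differences were -2.36 ± 0.10 and -2.30 ± 0.08 (SE, limma adjusted p = 3.55e-07 and 1.19e-07). The phosphatase of cell division CDC25B had a difference of -1.49. The widest differences of the class belonged to FOS (-3.48), DENND3 (-3.33) and FGFR1 (-3.24), and the last of these changed by -0.67 with SGC-CBP30 and 2.57 with CPI203. The metallothionein gene MT2A changed by -0.63 and 2.34. DENND3, FGFR1 and MT2A were named after their values were seen.

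The reverse pattern, higher with SGC-CBP30 and lower with CPI203, was found for 36 genes, of which 26 are protein-coding and 22 met the conditions for being named. Their median log2 change with SGC-CBP30 was 0.77, that with CPI203 -0.96, and their median level in the DMSO pair of the SGC-CBP30 experiment was 2.15 RPKM. IL17D, a cytokine gene, ranked first and lies on chromosome 13. It was at 1.42 and 1.45 RPKM with DMSO and 3.51 and 3.17 RPKM with SGC-CBP30, and at 2.92 and 2.59 RPKM with DMSO and 1.21 and 0.894 RPKM with CPI203. Both treated pairs lay outside the DMSO range, and the difference was 2.48 ± 0.24 (SE, limma adjusted p = 2.58e-05). AK4, an adenylate kinase of mitochondria, was at 4.04 and 4.31 RPKM with DMSO and 8 and 7.56 RPKM with SGC-CBP30, against 6.72 and 6.76 RPKM with DMSO and 1.94 and 2.43 RPKM with CPI203. Its difference was 2.47 ± 0.16 (SE, limma adjusted p = 2.76e-06), and its processed copies AK4P1 and AK4P3 were in the same class, where reads could have been shared between them.

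TCTN2, part of the transition zone of the primary cilium, was at 3.73 and 3.81 RPKM with DMSO and 7.16 and 7.17 RPKM with SGC-CBP30, and at 3.89 and 3.86 RPKM with DMSO and 1.57 and 1.89 RPKM with CPI203. The DMSO pairs of TCTN2 were nearly equal, with each treated pair well apart from them. The difference was 2.04 ± 0.16 (SE, limma adjusted p = 7.54e-06). OSCP1 differed by 2.09, and the ciliary genes TMEM67 and IFT81 changed by 0.78 and 0.75 with SGC-CBP30 and by -0.66 and -0.68 with CPI203. Both were named after their values were seen.

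The remaining named genes of this class were AMPD1, TMEM180, KCNMB2 and ELMOD1. AMPD1, which deaminates AMP, was at 6.29 and 6.13 RPKM with DMSO and 11.8 and 11.7 RPKM with SGC-CBP30, but at 15.2 and 14 RPKM with DMSO and 6.59 and 6.09 RPKM with CPI203. The SGC-CBP30 libraries of AMPD1 thus lay between the DMSO pairs and the CPI203 libraries overlapped the lower pair, and a direct comparison of the treated libraries gave 0.88 instead of 2.10. The potassium channel subunit gene KCNMB2 and ELMOD1, which acts on small GTPases, likewise stayed within the range of the 4 DMSO libraries with either compound, and the KCNMB2 difference of 1.69 became 0.47 in the direct comparison. TMEM180 did not, with 1.97 and 1.88 RPKM with DMSO and 3.35 and 3.69 RPKM with SGC-CBP30, against 2 and 1.95 RPKM with DMSO and 0.915 and 1.12 RPKM with CPI203.

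**Figure D2:**
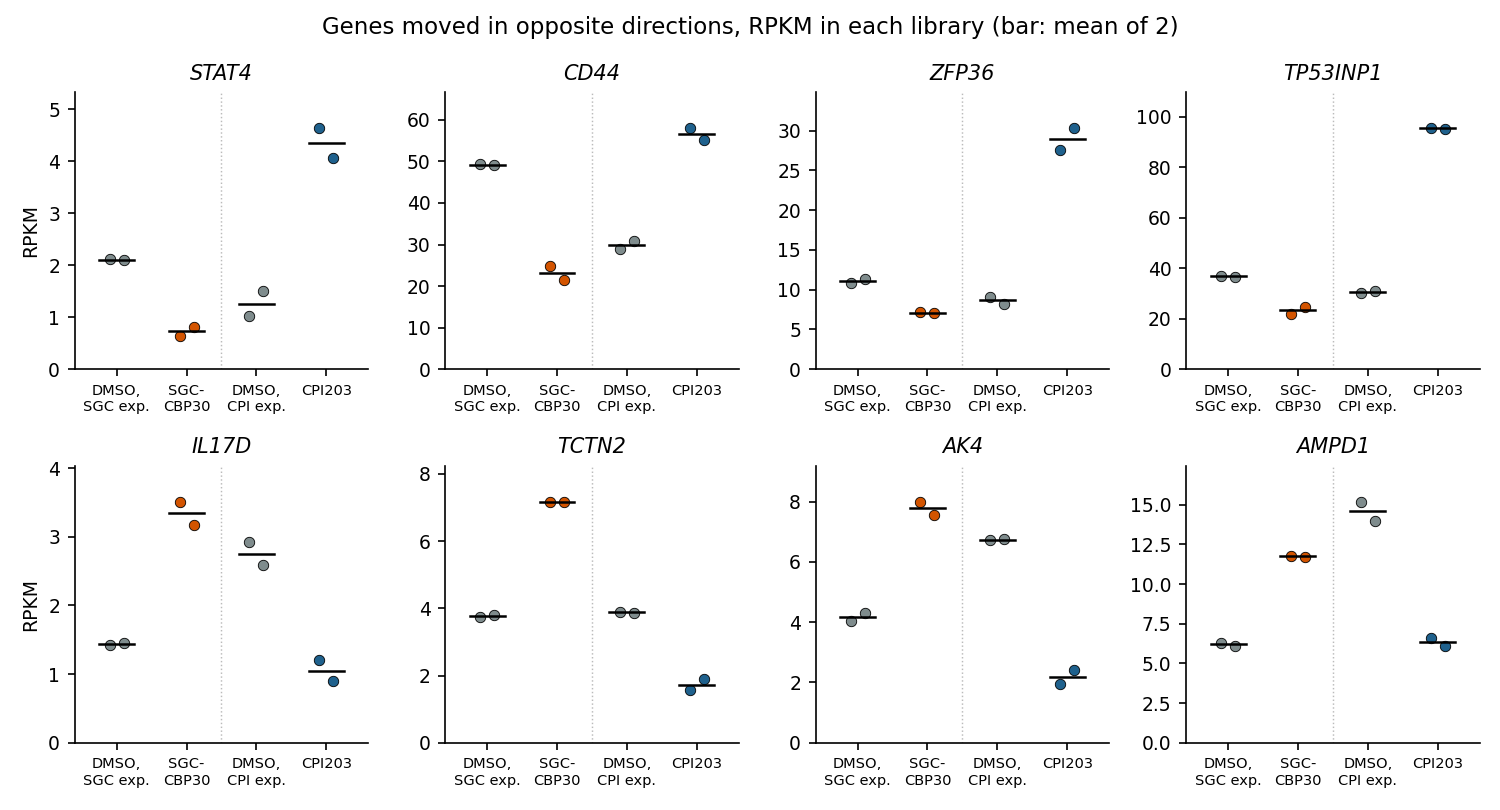
RPKM (vertical axis, from 0) of 4 genes that fell with SGC-CBP30 and rose with CPI203 (top) and 4 with the reverse pattern (bottom) in the 8 libraries; points are libraries, bars the mean of 2, and the dotted line separates the experiments. In 7 of the 8 panels both treated pairs lie outside all 4 DMSO libraries, on opposite sides; AMPD1 is the exception.

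The DMSO pairs differed between the experiments for 1155 genes (7.84% of those tested), and this moved with the classes. Of the 42 genes that fell with SGC-CBP30 and rose with CPI203, 36 were higher in the DMSO pair of the SGC-CBP30 experiment, with a median of 0.35 and 11 of them called. Of the 36 genes of the reverse pattern only 4 were higher there, with a median of -0.53 and 17 called. The genes moved by SGC-CBP30 only behaved similarly, with medians of 0.45 for the 115 lowered genes (46 called) and -0.42 for the 56 raised genes (17 called). For the genes moved by CPI203 only the medians were 0.01 and 0.07, with 37 of 1170 and 41 of 699 called. The DMSO libraries enter both the responses and this comparison, so the counts are given as values, and their part in the result was not tested.

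**Figure D3:**
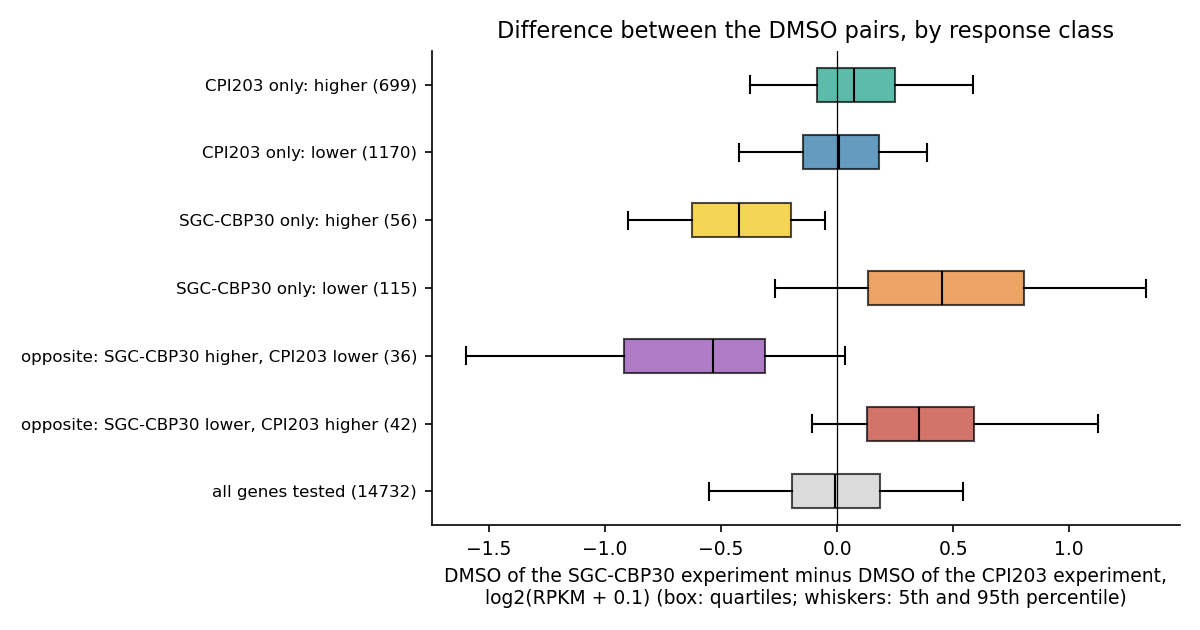
Log2 difference between the DMSO pairs (horizontal axis, DMSO of the SGC-CBP30 experiment minus DMSO of the CPI203 experiment) for all genes tested and for each class; boxes are quartiles, lines medians and whiskers the 5th and 95th percentiles over genes. The median is 0.45 for genes lowered by SGC-CBP30 only, -0.53 for genes higher with SGC-CBP30 and lower with CPI203, and 0.01 for genes lowered by CPI203 only.

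When the treated libraries had to lie outside all 4 DMSO libraries, 32 of the 42 and 19 of the 36 opposite genes remained. Of the genes moved by SGC-CBP30 only, 87 of the 115 lowered and 45 of the 56 raised remained, and of those moved by CPI203 only, 1153 of 1170 and 679 of 699. In a direct comparison of SGC-CBP30 libraries with CPI203 libraries, 45 of the 115 genes lowered by SGC-CBP30 only were still lower by at least 1.5-fold, and 5 were higher by that margin. For genes lowered by CPI203 only, 1056 of 1170 kept a called difference of the same sign, and 0 had one of the opposite sign. Such a difference was kept by 526 of the 699 genes raised by CPI203 only, but by only 20 of the 56 raised by SGC-CBP30 only. In the opposite classes 38 of 42 and 32 of 36 kept it.

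SGC-CBP30 alone lowered 115 genes, with a median log2 change of -0.87 against 0.02 with CPI203. GLUL, glutamine synthetase, was at 74.7 and 76.2 RPKM with DMSO and 28 and 29.2 RPKM with SGC-CBP30, against 39.4 and 37.2 RPKM with DMSO and 42.2 and 42.8 RPKM with CPI203. The SGC-CBP30 libraries were the lowest of the 8, although the DMSO pairs also differed, and the difference between the responses was -1.55 ± 0.06 (SE, limma adjusted p = 2.47e-07) and -0.57 in the direct comparison of treated libraries.

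IGFBP7, a secreted binding protein of insulin-like growth factors, was at 14.3 and 13.7 RPKM with DMSO and 4.07 and 4.22 RPKM with SGC-CBP30, and at 6.57 and 4.52 RPKM with DMSO and 5.4 and 6.35 RPKM with CPI203. The level with SGC-CBP30 was thus close to the other DMSO pair, and the difference of -1.83 became -0.49 when treated libraries were compared directly. C10orf10 had a difference of -1.91, which became -0.70 in that comparison, TTC7A one of -1.54, and the semaphorin SEMA4B one of -1.50. ATP2A3, a calcium pump of the endoplasmic reticulum, fell from 41.3 and 43.6 RPKM to 17.1 and 16.3 RPKM with SGC-CBP30, but was at 13.6 and 13.2 RPKM with DMSO and 15 and 14.9 RPKM with CPI203. For ATP2A3 the SGC-CBP30 libraries were above all those of the CPI203 experiment, and the difference of -1.50 became 0.15 when treated libraries were compared directly. The class also held, as noticed after its values were seen, TMSB4X, thymosin beta-4, at -1.08 with SGC-CBP30 and 0.28 with CPI203, with 2 of its copies, TMSB4XP8 and TMSB4XP1, whose reads cannot be separated with certainty.

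SGC-CBP30 alone raised 56 genes, with a median log2 change of 0.74 against -0.08 with CPI203. BNIP3, a mitochondrial protein of hypoxia and mitophagy, was at 9.17 and 9.82 RPKM with DMSO and 35.4 and 36.3 RPKM with SGC-CBP30, and at 17.2 and 16.6 RPKM with DMSO and 16.9 and 17.5 RPKM with CPI203. The SGC-CBP30 libraries were the highest by a wide margin and the CPI203 libraries overlapped their DMSO pair, with a difference of 1.88 ± 0.08 (SE, limma adjusted p = 3.43e-07). PFKFB4, which sets the level of a glycolytic activator, was at 1.24 and 1.58 RPKM with DMSO and 4.46 and 4.9 RPKM with SGC-CBP30, against 1.08 and 1.27 RPKM with DMSO and 1.12 and 1.41 RPKM with CPI203. SLC2A1, the glucose transporter GLUT1, was at 8.01 and 8.44 RPKM with DMSO and 18.5 and 16.2 RPKM with SGC-CBP30, and at 6.41 to 6.9 RPKM in the 4 libraries of the CPI203 experiment. Both genes had similar DMSO pairs, and their differences were 1.58 and 1.16.

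The actin-binding CTTN (1.25), the membrane skeleton gene EPB41L2 (1.09), UAP1L1, an enzyme of sugar nucleotides (1.13), and the ciliary gene ARMC9 (1.06) completed the named genes of this class together with ID3. The DMSO pairs of EPB41L2 averaged 28.1 and 51.5 RPKM and those of UAP1L1 1.5 and 2.88 RPKM, and with treated libraries compared directly the differences became 0.22 and 0.23, below 1.5-fold. ID3, an inhibitor of basic helix-loop-helix factors, was at 6.27 and 6.78 RPKM with DMSO and 17.4 and 17.8 RPKM with SGC-CBP30, but at 16.7 and 16.2 RPKM with DMSO and 18.3 and 21.9 RPKM with CPI203. The level of ID3 with SGC-CBP30 was thus that of the CPI203 experiment, and the difference of 1.14 became -0.19 when treated libraries were compared directly.

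CPI203 alone lowered 1170 genes, by a median of -0.93 on the log2 scale against 0.02 with SGC-CBP30. DDN, which encodes the cytoskeletal protein dendrin, was at 10.3 to 12.6 RPKM in the 4 libraries of the SGC-CBP30 experiment, at 11.4 and 10.8 RPKM with DMSO and at 1.04 and 1.16 RPKM with CPI203. RGS16, which shortens signals of G protein-coupled receptors, was at 18.9 to 21.8 RPKM in the SGC-CBP30 experiment, at 19.4 and 19.7 RPKM with DMSO and at 2.48 and 2.45 RPKM with CPI203. In both genes the CPI203 libraries stood alone below the other 6, with differences of 3.31 ± 0.15 and 2.85 ± 0.10 (SE, limma adjusted p = 4.63e-07 and 1.19e-07). The circadian repressor gene NR1D1, the apoptotic nuclease gene DFFB, TSKU, the nucleotide receptor gene P2RY6, TRIM46 and the B cell adaptor gene BLNK followed, with differences of 2.38 to 2.68. BLNK was the one whose DMSO pairs differed most, at 2.76 and 2.42 RPKM against 5.9 and 6.12 RPKM.

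CPI203 alone raised 699 genes, by a median of 0.92. HIST1H2AG and HIST1H2AI, which encode histone H2A, had the widest differences of this class. HIST1H2AG was at 7.79 to 9.27 RPKM in the SGC-CBP30 experiment, at 12 and 11.4 RPKM with DMSO and at 91 and 92.1 RPKM with CPI203, with a difference of -2.83 ± 0.10 (SE, limma adjusted p = 1.37e-07). IRF7, a regulator of type I interferon genes, was at 4.31 to 5.8 RPKM in the SGC-CBP30 experiment, at 4.4 and 3.28 RPKM with DMSO and at 20.6 and 22.2 RPKM with CPI203, a difference of -2.29 ± 0.21 (SE, limma adjusted p = 2.03e-05). In both genes only the CPI203 libraries were high. The redox protein gene NXN, TRIM36, the pentraxin receptor gene NPTXR, ZSWIM6 and NFKBIZ, a nuclear member of the I-kappaB family, had differences of -2.16 to -2.39.

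**Figure D4:**
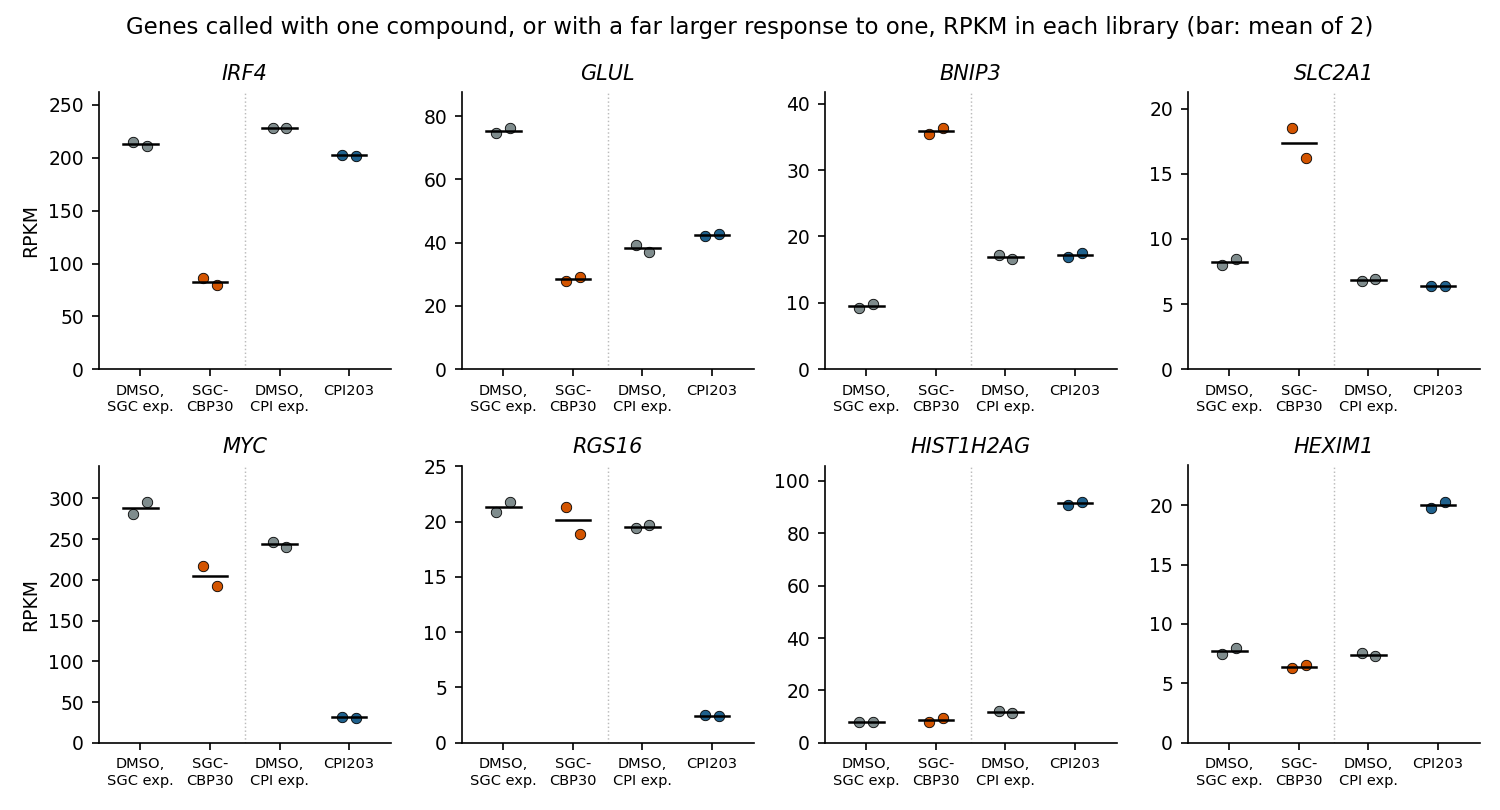
RPKM (vertical axis, from 0) of 8 genes in the 8 libraries, drawn as points with bars for the mean of 2; the dotted line separates the experiments. In the top row, from IRF4 to SLC2A1, the SGC-CBP30 libraries stand apart, and in the bottom row, from MYC to HEXIM1, the CPI203 libraries do. For GLUL the DMSO pair of the SGC-CBP30 experiment also lies apart, above all other libraries.

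Gene lists of pathways were then read by their counts beside those of all genes, of which 9.68% had a lower and 14.8% a higher SGC-CBP30 response and the median difference was 0.06. Among 41 MYC-associated growth genes, mostly of ribosome assembly and nucleotide synthesis, the SGC-CBP30 response was the lower for 0 and the higher for 24, with a median difference of 0.67. Of these, 22 fell with CPI203 only. NOP16, a nucleolar protein of ribosome assembly, was at 68.8 and 73.8 RPKM with DMSO and 62.7 and 61.8 RPKM with SGC-CBP30, and at 68.2 and 71.4 RPKM with DMSO and 13.1 and 12.3 RPKM with CPI203. The SGC-CBP30 libraries were a little below the DMSO libraries and the CPI203 libraries far below them, at a difference of 2.26 ± 0.07 (SE, limma adjusted p = 1.1e-07). POLR1B, a subunit of RNA polymerase I, and RRS1, a ribosome assembly factor, had differences of 2.06 and 1.78. Of the 22 genes 18 had a promoter sequence, and 3 of these, DHODH, SRM and CDK4, held an E-box in it. The 64 ribosomal protein genes, by contrast, had a median difference of -0.03, and 0 passed with limma (45 of the differences were below 0, and they ranged from -0.42 to 0.29).

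Replication-dependent histone genes differed furthest. Their main transcripts end in a stem-loop and not in a poly(A) tail. Of 89 listed genes 41 were tested, among them 9 with under 1 RPKM in a DMSO pair that passed the filter through their level in other libraries, so the counts describe these 41 only. The SGC-CBP30 response was the lower for 39 and the higher for 0, with a median difference of -2.21. HIST2H3C, of histone H3, was at 1.24 and 0.885 RPKM with DMSO and 1.22 and 1.37 RPKM with SGC-CBP30, and at 1.18 and 0.946 RPKM with DMSO and 20.7 and 21.5 RPKM with CPI203. Its neighbor HIST2H3A had nearly identical values, and reads of such near-identical copies cannot be assigned with certainty. With SGC-CBP30 11 members were called higher and with CPI203 40, against 3.47% and 13.4% of all genes tested.

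Growth arrest genes and immediate-early genes leaned the same way. For 23 p53 targets and inhibitors of cyclin-dependent kinases the SGC-CBP30 response was the lower for 13 and the higher for 1, at a median difference of -0.80. CDKN1A, the kinase inhibitor p21, was at 0.174 and 0.175 RPKM with DMSO and 0.229 and 0.233 RPKM with SGC-CBP30, and at 0.217 and 0.121 RPKM with DMSO and 6.17 and 6.57 RPKM with CPI203. It passed the filter through its CPI203 libraries alone, where it was high. AEN, a nuclease of the p53 response, was the member with the opposite sign, at 34.4 and 35.4 RPKM with DMSO and 33.9 and 32.1 RPKM with SGC-CBP30, and at 32.9 and 30.6 RPKM with DMSO and 6.27 and 6.15 RPKM with CPI203. The canonical p53 targets MDM2, BAX and FDXR had differences of 0.18, 0.005 and -0.05, and none of these passed. Of 18 immediate-early and AP-1 genes tested, 11 had a lower and 1 a higher SGC-CBP30 response, with a median difference of -0.92. Of these 18, FOS, FOSL2 and IER3 were below 1 RPKM in a DMSO pair and passed the filter through other libraries, so the counts describe the genes tested only. FOS, ZFP36 and DUSP1 moved in opposite directions, and JUN and JUND rose with CPI203 only, by 1.43 and 1.27. FOS, a subunit of AP-1, was at 2.55 and 1.82 RPKM with DMSO and 0.664 and 0.648 RPKM with SGC-CBP30, but at 0.339 and 0.316 RPKM with DMSO and 1.69 and 1.34 RPKM with CPI203, so that its levels with CPI203 stayed below those of the other DMSO pair. SPRY1, an inhibitor of growth factor signalling, was the exception in direction, at 1.56.

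Lineage and trafficking genes were divided. Among 21 plasma cell and B lineage genes, 3 had a lower and 7 a higher SGC-CBP30 response, with a median difference of 0.40. IRF4 and PRDM1, another master regulator of plasma cells, fell with SGC-CBP30 only, PRDM1 by 0.64 on the log2 scale. Several surface proteins of plasma cells fell with CPI203. TNFRSF17, the receptor BCMA, was at 116 and 126 RPKM with DMSO and 87.2 and 89.8 RPKM with SGC-CBP30, and at 139 and 145 RPKM with DMSO and 27.3 and 26.6 RPKM with CPI203, a difference of 1.95 ± 0.07 (SE, limma adjusted p = 1.19e-07). SDC1, which is CD138, differed by 1.69 and FCRL5 by 2.75. Among 14 trafficking genes 5 differed in each direction. KLF2, a transcription factor of lymphocyte quiescence and homing, was at 15.9 and 16.7 RPKM with DMSO and 3.53 and 3.47 RPKM with SGC-CBP30, and at 11.8 and 10.9 RPKM with DMSO and 14 and 17.1 RPKM with CPI203. S1PR1, the receptor by which lymphocytes leave tissues, was at 2.1 and 2.05 RPKM with DMSO and 0.448 and 0.442 RPKM with SGC-CBP30, and at 1.46 and 1.26 RPKM with DMSO and 1.08 and 1.35 RPKM with CPI203. In both genes the SGC-CBP30 libraries were the lowest of the 8, and the differences were -2.63 ± 0.13 and -1.84 ± 0.28 (SE, limma adjusted p = 7.9e-07 and 0.000424).

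HLA class II genes, which present peptides to helper T cells, also differed at the median between the DMSO pairs. The part of this in the result was not tested. Of 16 genes 8 had a lower and 2 a higher SGC-CBP30 response, the median difference was -0.54 and 7 fell with SGC-CBP30 only. The median difference between the DMSO pairs was 1.04, however, and with treated libraries compared directly the median became 0.56. HLA-DRB5 was at 75.8 and 77.1 RPKM with DMSO and 39.8 and 38.6 RPKM with SGC-CBP30, but at 31.7 and 30.9 RPKM with DMSO and 28.2 and 27 RPKM with CPI203, so that the treated level was still above the other experiment. Reads of DRB5 and of its paralog DRB1 may have been exchanged. Sterol synthesis genes showed the same feature, with a median difference of -0.27 over 22 genes, 0.49 between the DMSO pairs and 0.22 in the direct comparison. INSIG1, which retains the sterol sensor in the endoplasmic reticulum, was at 277 and 298 RPKM with DMSO and 144 and 142 RPKM with SGC-CBP30, and at 124 and 124 RPKM with DMSO and 172 and 180 RPKM with CPI203, between the DMSO pairs in all treated libraries, and its difference of -1.51 became -0.30 in the direct comparison.

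Glucose use and hypoxia genes did not move as a block. Of 19 glycolysis genes 2 had a lower and 5 a higher SGC-CBP30 response (median difference 0.27), and PFKFB3, PFKFB4 and SLC2A1 rose with SGC-CBP30 only. HK2, a hexokinase, was at 17.4 and 17 RPKM with DMSO and 25.1 and 24.1 RPKM with SGC-CBP30, and at 19 and 19.3 RPKM with DMSO and 5.41 and 5.9 RPKM with CPI203. Its SGC-CBP30 change of 0.51 did not reach 1.5-fold, and the difference was 2.26 ± 0.09 (SE, limma adjusted p = 1.88e-07). GAPDH, ALDOA and ENO1 had differences of -0.16, 0.11 and 0.18, below 1.5-fold. Of 18 hypoxia genes 4 differed in each direction (median difference -0.18), from C10orf10 at -1.91 to BNIP3 at 1.88.

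Inflammatory lists were small or divided. Of 14 interferon-stimulated genes tested among 32 listed, 6 had a lower and 2 a higher SGC-CBP30 response (median difference -0.39). IRF7, STAT2 and IRF9 rose with CPI203 only, whereas PARP14 fell with SGC-CBP30 only. Of 18 NF-kappaB genes 2 had a lower and 4 a higher SGC-CBP30 response (median difference -0.11). CCL3, a chemokine, was at 5.98 and 7.04 RPKM with DMSO and 19.5 and 17.7 RPKM with SGC-CBP30, and at 8.3 and 7.75 RPKM with DMSO and 6.68 and 5.54 RPKM with CPI203. Only the SGC-CBP30 libraries were high, and the difference was 1.90 ± 0.16 (SE, limma adjusted p = 9.71e-06). Of 11 genes of the interleukin-6 receptor and STAT3 chain, 5 had a lower and 0 a higher SGC-CBP30 response (median difference -0.58), PIM1 the most. PIM1, a kinase gene, was at 62.6 and 65.2 RPKM with DMSO and 37 and 37.3 RPKM with SGC-CBP30, and at 31.8 and 30.9 RPKM with DMSO and 46.6 and 45 RPKM with CPI203. Its treated libraries all lay between the DMSO pairs, and the difference of -1.33 became -0.30 when treated libraries were compared directly. The receptor genes IL6ST and IL6R fell with both compounds, and IL6ST further with SGC-CBP30, from 118 and 110 RPKM to 29.8 and 30.5 RPKM, against 91.8 and 105 RPKM to 49.7 and 49.1 RPKM with CPI203. Reads of IL6ST and its copy IL6STP1 may have been shared.

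Of 15 BET and P-TEFb genes 5 had a lower and 0 a higher SGC-CBP30 response (median difference -0.38), led by SERTAD1, and of 28 acetyltransferase and deacetylase genes 5 and 3 did (-0.21). SERTAD1 rose with both compounds, by 0.70 with SGC-CBP30 and by 3.45 with CPI203. It averaged 0.869 and 0.894 RPKM in the DMSO pairs and passed the filter through other libraries. The counts were 3 and 1 of 29 for folding and stress of the endoplasmic reticulum (-0.04), 2 and 5 of 24 for the ATF4 amino acid response (0.18) and 3 and 1 of 19 for chaperones (0.07). They were 2 and 0 of 23 for S phase (0.03), 4 and 1 of 27 for G2 and M phase (-0.19), 1 and 0 of 10 for the BCL2 family (-0.07) and 1 and 3 of 7 for chemokines (0.17). The chemokine gene CCL5 averaged only 0.743 and 0.613 RPKM in the DMSO pairs and passed the filter through other libraries. In the BCL2 family the member that passed was MCL1, an inhibitor of apoptosis, at 154 to 158 RPKM in the SGC-CBP30 experiment, 195 and 200 RPKM with DMSO and 327 and 321 RPKM with CPI203. Median scaling moved the median of all genes from 0.06 to -0.01. Under these scalings the sign of the median turned for folding and stress of the endoplasmic reticulum and for ribosomal proteins after quantile normalization (0.06 each), and for S phase (-0.04) and chaperones (-0.00) after median scaling. With treated libraries compared directly it turned for the HLA class II and sterol lists, as given above, and for the NF-kappaB (0.31), BCL2 family (0.13), trafficking (0.07) and chaperone (-0.03) lists.

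**Figure D5:**
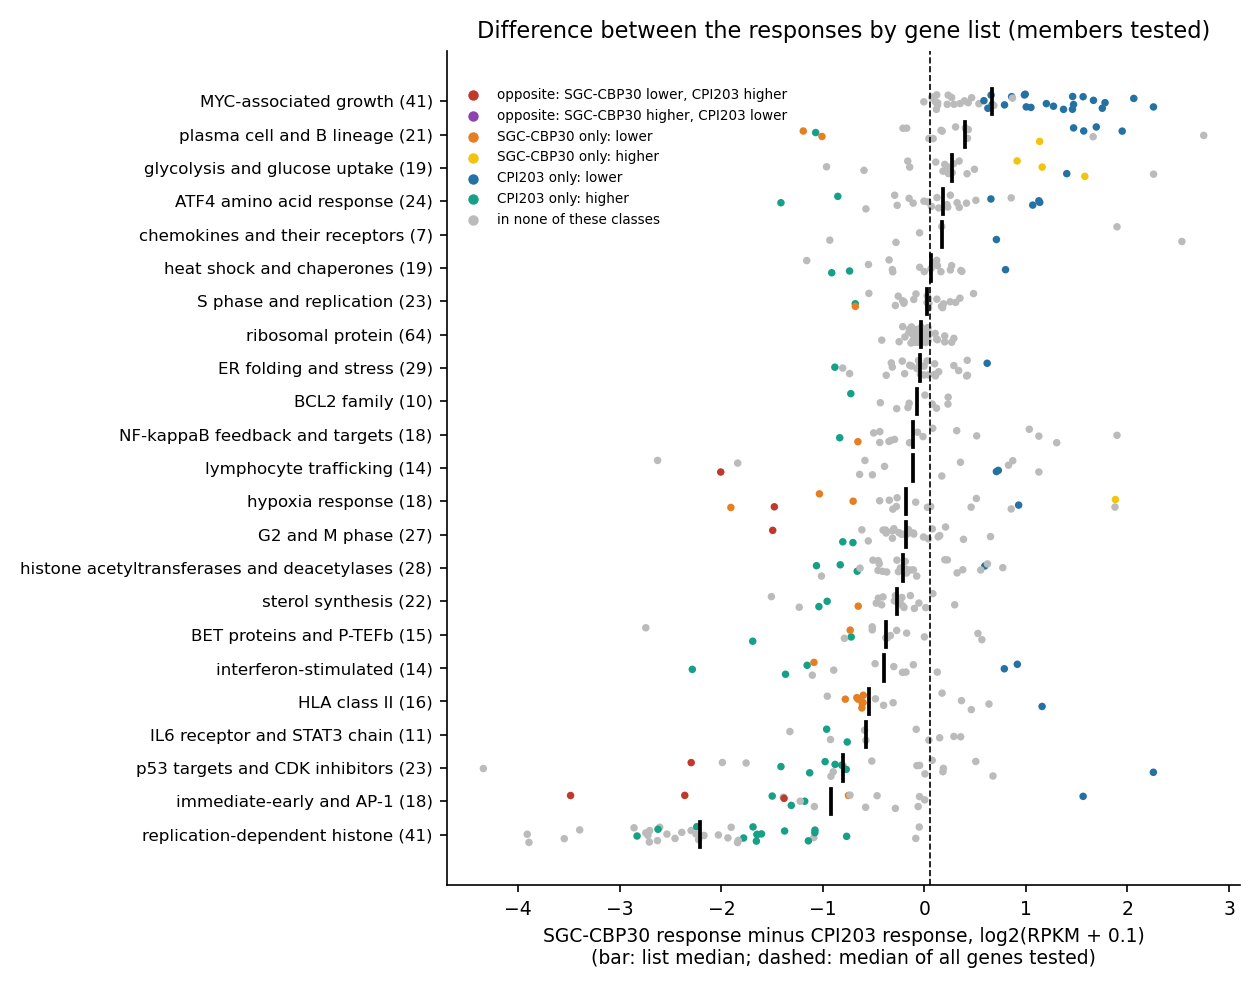
Difference between the responses (horizontal axis, log2, SGC-CBP30 minus CPI203) of each gene tested in 23 lists; points are genes, colored by class, bars are list medians and the dashed line is the median of all genes tested at 0.06. Histone genes lie furthest to the left, with a median of -2.21, and MYC-associated growth genes furthest to the right, with 0.67.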

How the data were processed

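RNA-seq of LP-1 cells was deposited as 1 table of RPKM values per gene. The authors aligned reads and computed RPKM, and the submitters' processing notes name TopHat 1.4.1, Cufflinks and the build hg19 without giving their roles; read counts were not used here. Columns of 24 other libraries in the table were not used. Values were tested as log2(RPKM + 0.1), so fold changes of low genes are understated. All 14732 genes that averaged 1 RPKM or more were fitted in limma 3.58.1 (R 4.3.3) with 4 groups of 2 libraries and an intensity trend, and the contrast was the SGC-CBP30 change minus the CPI203 change. P-values are Benjamini-Hochberg adjusted over all genes tested, and the threshold was 0.05 with a change of at least 1.5-fold. An exact permutation test of 2 against 2 libraries cannot go below 0.333 and was not used. Tables and plots were made with matplotlib 3.10.9, numpy 2.4.6 and pandas 2.3.3 under Python 3.11.15, and the fit was tested on simulated data.

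Depth was estimated from the steps between low RPKM values, of which 59.3% to 75.5% were whole reads within 0.1 read, so it is approximate and no count test was run. Named genes were IRF4, MYC, the genes of the compounds' targets and HEXIM1. To these were added protein-coding genes of at least 1 RPKM in each DMSO pair whose treated libraries lay beyond their own DMSO libraries, namely the 8 per opposite class with the largest smaller change and the 8 per one-compound class with the widest difference, and the 2 to 4 members of each list with the widest difference. Genes outside this rule are marked or stand as members of a counted class. The members, classes and gene lists were chosen with earlier results of these data known. Annotation came from GENCODE release 29, which held 14334 of the genes tested, and promoters from RefSeq. Alternatives changed the pseudocount, the filter, the scaling, the controls, the variance trend, the replicate block and the fold threshold, or left out each library. Some named genes are not reported here.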

Additional observations from a re-analysis of the deposited data

Results flagged for a closer look

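The test of the difference between the responses singled out 3609 genes whose change with SGC-CBP30 differed from that with CPI203. Among them, 42 genes fell with SGC-CBP30 and rose with CPI203, and 36 genes rose with SGC-CBP30 and fell with CPI203. Compound and experiment cannot be told apart in these counts.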

How the results depend on the processing

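The count of 3609 genes was 3561 after median scaling, 3042 with a pseudocount of 1 RPKM and 3311 to 3612 when 1 library was left out. With treated libraries compared directly 4431 genes differed, and only 2743 of the 3609 still passed. With a mean of at least 5 RPKM fewer genes were tested, and 2358 differed, 915 with a lower and 1443 with a higher SGC-CBP30 response; 518 genes differed between the DMSO pairs, 19 and 11 were opposite and SGC-CBP30 alone raised 23. SGC-CBP30 alone raised 36 genes after median scaling and 95 without a filter. The opposite classes held 19 and 9 genes with a pseudocount of 1 RPKM, and the class higher with SGC-CBP30 held 23 after quantile normalization; the cause was not tested. At 2-fold, 1427 genes differed (535 lower, 892 higher), 423 differed between the DMSO pairs, and the classes held 6, 1, 26, 9, 402 and 163 genes. With treated libraries compared directly, 124 and 56 genes were opposite, and the differences of ATP2A3 (0.15), ID3 (-0.19), HLA-DOA (1.08) and HLA-DRB5 (0.51) turned direction. With treated libraries beyond all 4 DMSO libraries, a limit chosen after seeing the data, 19 of the 36 genes remained. Over 118 named genes, 1937 alternative values kept direction and call, 22 lost the call, 5 gained it and 4 turned.

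The replicate numbers did not pair the libraries (correlation of deviations -0.172 in the SGC-CBP30 experiment and -0.039 in the CPI203 experiment). A replicate block gave 3573 genes, and a block with the numbers crossed, added after seeing the data, gave 3606. With 2 libraries a group, p-values measure only the spread between these libraries.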

Other observations

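Genes of the primary cilium were gathered into a list after several had been seen in the opposite class, so the list is given as a description with no test. Of 40 genes 38 were tested, 2 of them below 1 RPKM in a DMSO pair. Their median log2 change was 0.42 with SGC-CBP30 and -0.07 with CPI203. The SGC-CBP30 response was the higher for 15 and the lower for 1, which was BBS12, against 14.8% and 9.68% of all genes tested. The median difference was 0.45 against 0.06 for all genes tested. With SGC-CBP30 12 of the 38 were called higher, against 3.47% of all genes tested. With CPI203 7 were called lower and 6 higher, near the 14.4% and 13.4% of all genes tested. OSCP1, TCTN2, TMEM67 and IFT81 were among those that moved in opposite directions, IFT57 and BBS9 rose with SGC-CBP30 only, and CC2D2A and RPGRIP1L fell with CPI203 only.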
